A study of Rattus norvegicus with 28 samples.

Results

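Whole-kidney gene expression was compared between female rats of 2 inbred Sabra strains, SBN/y and SBH/y, that had kept both kidneys. The comparison took the 7 arrays of SBH/y and the 7 arrays of SBN/y from sham-operated animals, 14 of the 28 arrays of the series, and covered all 31042 probe sets that are not array controls. All 14 samples came from animals 5 months old that had undergone the sham operation 4 months before and, in both strains, received standard chow and water. The other 14 arrays came from rats of the same strains and age with 1 kidney left after uninephrectomy, 7 per strain, and are used here only where the same strain difference is set beside that with both kidneys. Samples are numbered 1 to 7 within a group, but nothing says that each came from its own animal, and a p-value therefore reflects only how far these samples spread, which may be technical. Values are deposited log2 intensities, and a positive difference is higher in SBH/y. A difference was called where limma's p-value, adjusted over all probe sets, was under 0.05, and the value after ± is its standard error.

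The Sabra rats were bred apart for their blood pressure response to salt, SBH/y being the sensitive strain and SBN/y the resistant one, and SBH/y rats are also known to lose protein in the urine with age. The kidney filters plasma in the glomerulus, and the proximal tubule then takes back most of the filtrate with fuel from fatty acid oxidation in its many mitochondria. The thick ascending limb and the distal nephron set how much salt, calcium and magnesium leave in the urine. Inbred strains carry fixed differences in the genome, so a gene can differ between them in its regulation, and a short array probe can also differ in how well it matches the transcript.

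Array medians lay between 5.73 and 5.77, the correlation between any 2 of the 14 arrays between 0.988 and 0.997, and the median SD of a gene was 0.109 in SBN/y and 0.112 in SBH/y. The first principal component, with 45.0% of the variance, separated the strains, at -25.2 to -17.7 for SBN/y and 11.6 to 25.7 for SBH/y. On the second, with 15.3%, SBH/y array 6 lay at -29.6 and array 7 at -14.5, outside the range of -8.93 to 16.3 of the other 12 arrays, and results that turn on these arrays are given with and without them. The kidney markers Slc34a1, Lrp2, Umod, Slc12a1 and Aqp2 had medians of 10.94 or more in both strains and the podocyte gene Nphs1 medians of 6.60 in SBN/y and 6.90 in SBH/y, all above the array medians. The adrenal gene Cyp11b1 lay at 2.86 and 2.82, under them. Signal over background was not measured, so no fold is printed for a gene with a strain mean under the array medians, and its log2 difference is that of the deposited values.

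With both kidneys present, 5570 of 31042 probe sets (17.9%) were called, 2991 higher and 2579 lower in SBH/y. By 1 probe set per gene, 1681 of 14217 genes (11.8%) were called higher and 1378 (9.69%) lower. Most of these differences were small. The median size of a called difference was 0.259 log2 units, 225 genes were higher and 151 lower by at least 1.5-fold, 70 and 52 by at least 2-fold, and 9 and 6 by at least 4-fold. Of the 30 genes with the largest differences, 14 had a strain mean under the lowest array median. In 655 genes every SBH/y array lay above every SBN/y array, and in 557 every SBH/y array lay below. The median difference over all genes was -0.00996. Without SBH/y arrays 6 and 7 the calls numbered 3654 genes, 2074 higher and 1580 lower, and 2717 of the 3059 called genes (88.8%) were called the same way. All 30 with the largest differences stayed called, with 0.87 to 1.13 times their size.

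Mis18a, which helps to load centromeric histone, had the largest positive difference. Its values ran from 3.34 through a median of 3.62 to 3.88 in SBN/y and from 6.01 through 6.15 to 6.29 in SBH/y, and further triplets of this form are likewise the lowest, the median and the highest array of a strain. Every SBH/y array lay more than 2 log2 units above every SBN/y array, which gave a difference of 2.54 ± 0.08 (adjusted p = 5.75e-21), with the SBN/y values under the array medians. Tmed6, of the p24 family of cargo receptors in the secretory pathway, ran from 6.83 through 7.20 to 7.50 in SBN/y and from 9.15 through 9.58 to 10.18 in SBH/y. Pxmp4, a peroxisomal membrane protein, ran from 6.25 through 6.36 to 6.80 and from 8.48 through 8.82 to 9.14. In neither gene did the strains overlap, with differences of 2.46 ± 0.12 and 2.39 ± 0.09 (5.49-fold and 5.24-fold, adjusted p = 2.06e-16 and 3.61e-19).

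Sdf2l1, a co-chaperone of the endoplasmic reticulum, ran from 5.36 through 5.64 to 5.91 in SBN/y and from 7.76 through 7.95 to 8.27 in SBH/y. Cyp4a1, which hydroxylates fatty acids at their end carbon, ran from 9.28 through 9.43 to 9.73 and from 11.57 through 11.75 to 11.88. Blvra, the reductase that turns biliverdin into bilirubin, ran from 7.10 through 7.27 to 7.48 and from 9.21 through 9.39 to 9.59. In each of these genes all SBH/y arrays lay above all SBN/y arrays, by 2.36 ± 0.08 for Sdf2l1, 2.27 ± 0.07 for Cyp4a1 and 2.15 ± 0.07 for Blvra (4.82-fold for Cyp4a1 and 4.44-fold for Blvra, adjusted p = 2.95e-20, 2.85e-21 and 3.33e-20). The other 9 of the 15 largest rises were Ddit4l, an inhibitor of growth signalling (2.17 ± 0.39), the G protein subunit Gng13 (2.13 ± 0.12), the MHC class II chain RT1-Ba (2.02 ± 0.10), the carnosine-cleaving Cndp1 (2.00 ± 0.13), Angptl4, a secreted inhibitor of lipoprotein lipase (1.98 ± 0.23), the transcription factor Grhl1 (1.90 ± 0.27), the collagen Col24a1 (1.89 ± 0.16), Vof16 (1.83 ± 0.09) and the decarboxylase Gadl1 (1.82 ± 0.17). Adjusted p-values of these 9 ran from 7.65e-17 for Vof16 to 9.84e-05 for Ddit4l.

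The largest negative difference was that of RT1-Bb, the beta chain of the MHC class II molecule whose alpha chain is RT1-Ba. RT1-Bb ran from 8.57 through 8.73 to 9.03 in SBN/y and from 4.35 through 5.03 to 5.42 in SBH/y, a difference of -3.77 ± 0.18 (adjusted p = 2.36e-16), with the SBH/y values under the array medians. Ly6i, a lipid-anchored surface protein, ran from 10.21 through 11.52 to 11.75 and from 7.51 through 7.73 to 7.97. Its strains did not overlap, with a difference of -3.62 ± 0.14 (12.3-fold lower, adjusted p = 6e-19). Matn1, a matrilin known from cartilage, ran from 8.56 through 8.73 to 9.63 and from 5.73 through 5.92 to 6.37, and its strains lay apart by -2.94 ± 0.17 (7.67-fold lower, adjusted p = 2.44e-14).

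Among the other large falls, Ang, the ribonuclease angiogenin, differed by -1.91 ± 0.16, Bhmt, which remakes methionine with betaine, by -1.91 ± 0.13, and Dph6, an enzyme of diphthamide synthesis, by -1.86 ± 0.06. Mpv17l, a membrane protein related to Mpv17, ran from 10.53 through 10.74 to 10.89 in SBN/y and from 8.77 through 8.92 to 8.97 in SBH/y. Its range was narrow in both strains, and the difference was -1.84 ± 0.06 (3.58-fold lower, adjusted p = 2.95e-21). The remaining members of the 15 were Ucp1, Scd and Thrsp, described with the lipid genes, and Oacyl (-2.01 ± 0.13), the pseudogene Brcc3-ps7 (-1.85 ± 0.14), Ypel4 (-1.76 ± 0.15), the hemidesmosome collagen Col17a1 (-1.64 ± 0.09) and the transcription factor Pou2f1 (-1.55 ± 0.09). The strains did not overlap in 26 of these 30 genes, and the 4 with an overlap were Grhl1, Ucp1, Scd and Thrsp.

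**Figure D1:**
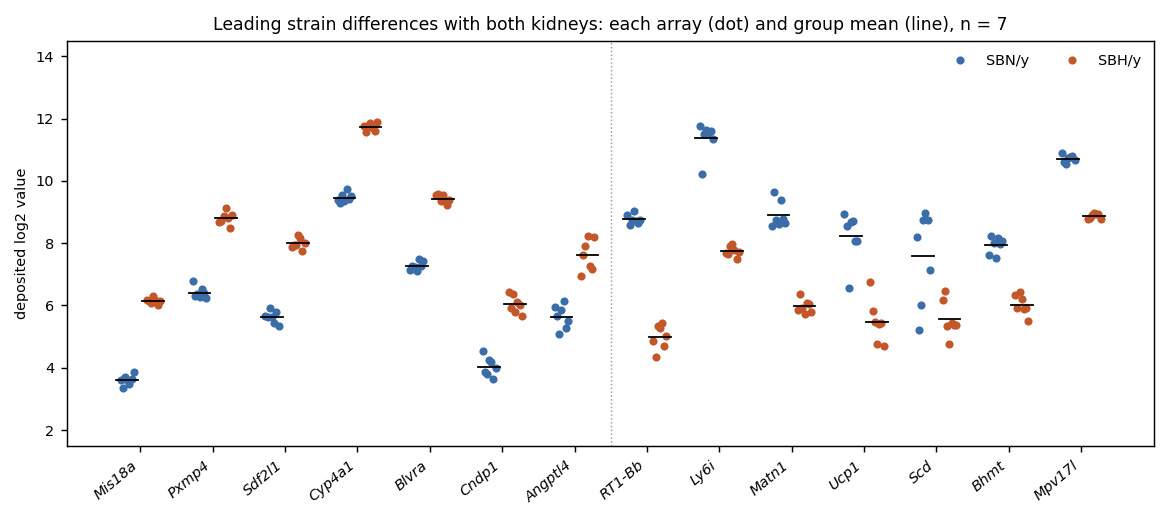
Deposited log2 value of each array for 7 of the 15 genes with the largest positive difference (left of the dotted line) and 7 of the 15 with the largest negative one (right), SBN/y against SBH/y, with a line at each strain's mean. The points of the strains overlap for Ucp1 and Scd and for none of the other 12 genes.

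Single probe sets carry part of these values. Of the 1535 further probe sets of 1040 called genes, 462 (30.1%) were called the same way, 46 (3.0%) the opposite way and 1027 were not called. For the 39 genes past 2-fold that had further probe sets, the counts were 31, 3 and 22 of 56. RT1-Ba was among the genes that disagreed. A second probe set fell by 1.19, 2 more lay at -0.16 and -0.19, and the mean of its probe sets differed by 0.12 (adjusted p = 0.117). RT1-Bb's other probe set lay at -0.07, and that of Vof16 at -0.02. Whether a mismatch between probe and transcript plays a part in such values was not tested.

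Genes called the same way also lay next to each other. After a gene called higher, the next measured gene along the chromosome was called higher in 16.4% of cases, against 11.8% of the 14165 placed genes, and for genes called lower the shares were 12.4% and 9.71%. The runs named here were chosen after their values were seen. The longest, 6 genes higher with a median difference of 0.47, was Runx1, Setd4, Cbr1, Cbr3, Dop1b and Morc3, which holds the neighbouring carbonyl reductases Cbr1 and Cbr3. The 2 runs of 5 were Apom, G4, Gpank1, Csnk2b and Abhd16a (median -0.23) and C3h15orf48, Slc30a4, Bloc1s6, Sqor and Sema6d (0.43). Of 18 runs of 4, some were gene families that share sequence, the thioesterases Acot1 to Acot4 (Acot2, Acot1, Acot4, Acot3, median 0.67), the Schlafen genes Slfn5, Slfn9, Slfn2 and Slfn4 (0.53), Ly6c, Ly6i, Ly6al and Ly6l (-0.51), and the kallikreins Klk1c9, Klk1, Klk1c3 and Klk1b3 (-0.36). Another held 3 neighbouring Nxpe genes with Rexo2 (-0.97), and most of the rest held genes of different families, such as Metrn, Wdr24, Jmjd8 and Stub1 (-0.19). A signal that passes between near-identical members of such a family cannot be told apart from a change in each.

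The 58 gene lists, which cover cell types and pathways and hold 1234 measured genes, are described by their counts of called members and their median difference, beside 11.8% higher, 9.69% lower and a median near 0 over all genes. The largest shares of higher members were those of macrophage and interferon genes, and the largest shares of lower members those of the respiratory chain, cholesterol synthesis and the thick ascending limb. Of the 191 list counts that moved by over 1.5 times under an alternative, 139 were counts of under 4 members, so the lesser direction of a list rests on few genes. Without SBH/y arrays 6 and 7 the counts of higher T and NK cell, complex IV and cholesterol synthesis genes and of lower complement genes were each 1 less, and those of higher fat tissue and lower lysosome genes 1 more. In whole tissue, fewer cells of a type and less RNA per cell cannot be told apart.

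**Figure D2:**
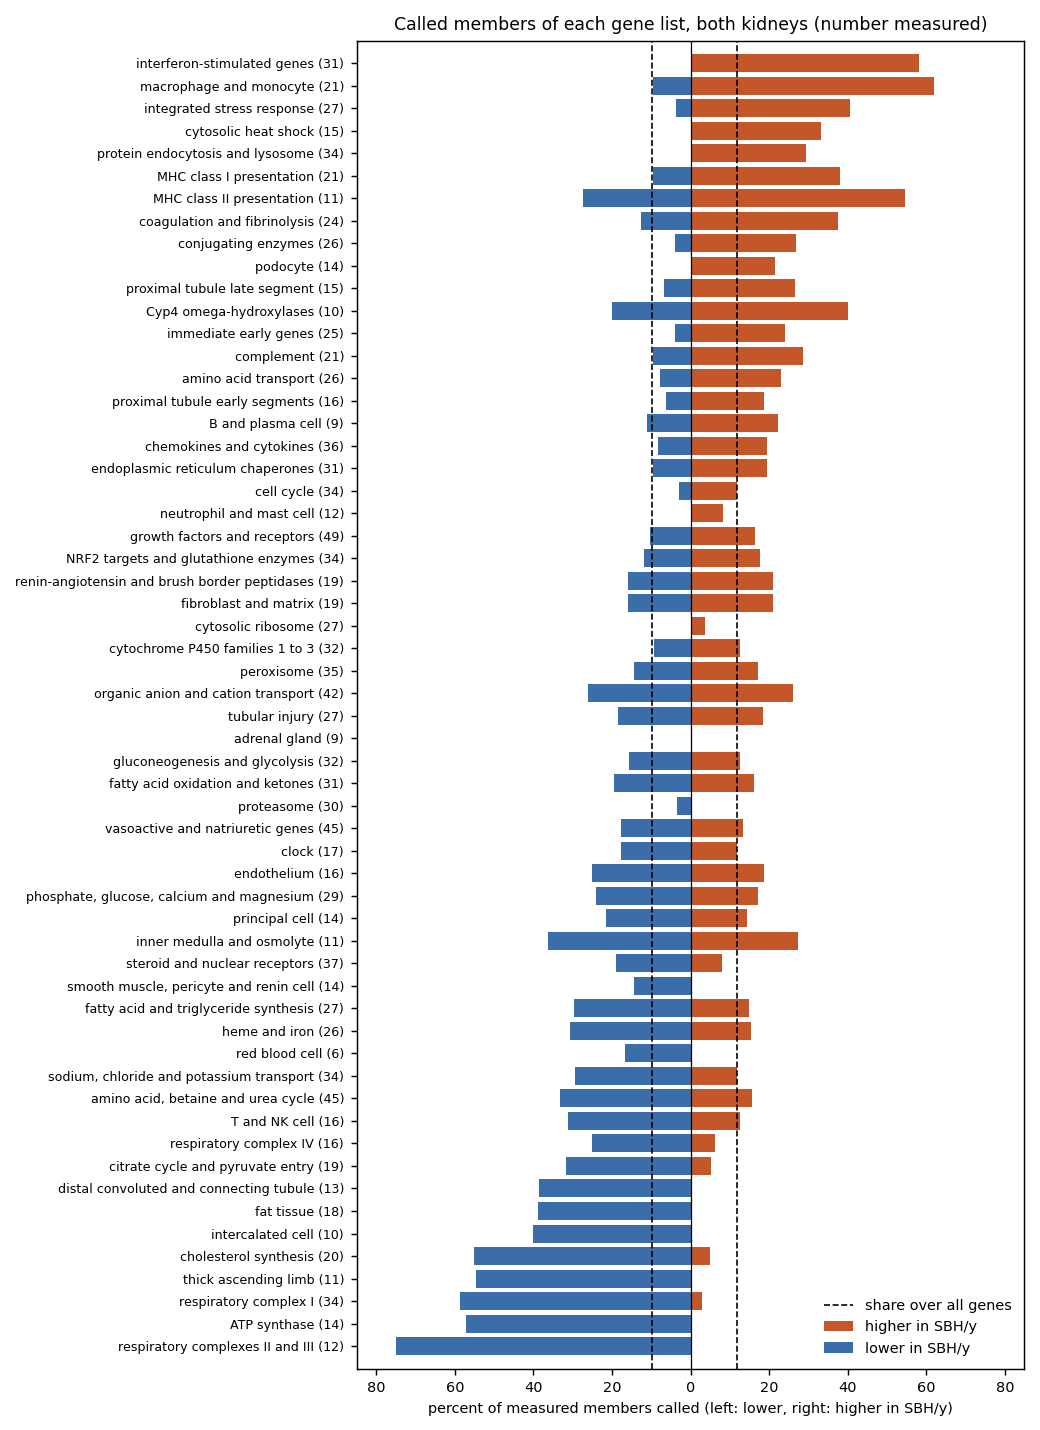
Percent of measured members of each gene list called higher (to the right) and called lower (to the left) in SBH/y with both kidneys, with dashed lines at the 11.8% and 9.69% of all genes. Macrophage and interferon lists reach farthest to the right, and the lists of respiratory complexes II and III and complex I farthest to the left.

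Interferon-stimulated genes encode antiviral proteins that cells make when interferon receptors are engaged. Of 31 measured, 18 were called higher in SBH/y and 0 lower, with a median difference of 0.29, and 30 of 31 lay above 0, the exception being Ifit1 at -0.05. Many such genes carry a pair of GAAA blocks in the promoter, the core of the interferon-stimulated response element. In the 250 bases before to 50 after the gene start in RefSeq's GRCr8 sequences, a pair of GAAA with 2 bases of any kind between, on either strand, was found in 16 of 25 promoters of the list, in 11 of 17 of its higher genes, in 350 of 11702 promoters of measured genes (2.99%) and in 1034 of 27457 of all promoters (3.77%). Overlapping matches were counted apart. The 250 bases before the start are shown for 3 of the list's higher genes, 5′ to 3′ on the gene's strand, with the motif in capitals. The reference is not of a Sabra strain, and a match describes the letters, not a site in use.
Ifi27, chr6:128355062-128355311, plus strand: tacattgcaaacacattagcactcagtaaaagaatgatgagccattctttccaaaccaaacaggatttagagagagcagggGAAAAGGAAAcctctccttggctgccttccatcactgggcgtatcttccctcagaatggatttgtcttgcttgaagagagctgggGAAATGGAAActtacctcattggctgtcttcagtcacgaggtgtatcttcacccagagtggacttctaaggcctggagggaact
Oas1a, chr12:41330216-41330465, plus strand: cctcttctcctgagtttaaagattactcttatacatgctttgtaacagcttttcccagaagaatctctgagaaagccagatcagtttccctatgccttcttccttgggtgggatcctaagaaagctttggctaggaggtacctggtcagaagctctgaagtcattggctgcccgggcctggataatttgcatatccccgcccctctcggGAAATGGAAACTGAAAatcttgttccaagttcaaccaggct
Oas1b, chr12:41395853-41396102, minus strand: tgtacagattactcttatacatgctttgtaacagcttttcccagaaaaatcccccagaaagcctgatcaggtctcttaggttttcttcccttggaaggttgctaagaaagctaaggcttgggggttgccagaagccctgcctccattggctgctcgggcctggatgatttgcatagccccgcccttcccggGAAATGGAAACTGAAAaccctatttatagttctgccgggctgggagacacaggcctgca

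Ifi27, with 2 separate copies of the motif, ran from 9.36 through 9.54 to 9.94 in SBN/y and from 10.82 through 10.86 to 11.002 in SBH/y. All SBH/y arrays lay above, by 1.28 ± 0.07 (2.43-fold, adjusted p = 6.89e-16), and the difference after uninephrectomy was 1.502. Oas1a and Oas1b, sensors of double-stranded RNA in the same family, share an overlapping pair of matches. Oas1b ran from 3.04 through 3.26 to 3.46 and from 4.03 through 4.36 to 4.49, under the array medians throughout, and differed by 1.09 ± 0.08 (adjusted p = 1.52e-12), while Oas1a differed by 0.46 ± 0.06 (adjusted p = 6.96e-07). In neither gene did the strains overlap. The chemokine Cxcl11 differed by 0.65 ± 0.08, Ifi44l by 0.56 ± 0.08, and 24 of the 31 genes were called higher after uninephrectomy.

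Macrophage and monocyte genes were the list with the largest share of higher members, 13 of 21, with 2 lower and a median of 0.33. Lyz2, the lysozyme of macrophages, ran from 10.96 through 11.13 to 11.46 in SBN/y and from 12.09 through 12.12 to 12.41 in SBH/y. The strains lay apart by 1.04 ± 0.07 (2.05-fold, adjusted p = 1.29e-13). Itgax, the integrin CD11c, differed by 0.90 ± 0.08, the Fc receptor chain Fcer1g by 0.66 ± 0.07, the macrophage receptor Adgre1 by 0.67 ± 0.10 and the endosomal marker Cd68 by 0.44 ± 0.08, all without overlap. Aif1 differed by 0.78 ± 0.13, and by 0.27 as the mean of its probe sets. Csf1r, the growth factor receptor of the lineage, differed by 0.04 and Itgam by -0.07, neither called, and the scavenger receptors Mrc1 (-0.76) and Cd163 (-0.19), known from resident macrophages, were called lower. These 4 genes were named after their values were seen. The mean level of the list's genes on an array ran from 6.62 to 6.92 in SBN/y and from 6.92 to 7.22 in SBH/y, and the part of macrophage content in the interferon, MHC, complement and lysosome values was not tested.

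MHC class II genes present peptides to helper T cells, and 6 of 11 were called higher and 3 lower, with a median of 0.20. Beside the opposed RT1-Ba and RT1-Bb, RT1-Db1 differed by 0.84 ± 0.08 and RT1-Da by 0.42 ± 0.06, both chains of the RT1.D molecule, while RT1-DMb, of the peptide exchange factor, differed by -0.39 ± 0.07. Of 21 genes of MHC class I presentation, 8 were higher and 2 lower. RT1-CE12, a class I heavy chain, ran from 11.07 through 11.08 to 11.20 in SBN/y and from 9.95 through 9.9999 to 10.11 in SBH/y, a difference of -1.07 ± 0.04 (adjusted p = 6.32e-19). The heavy chain RT1-CE5 was called in the other direction, at 0.64 ± 0.11 (0.27 as the mean of its probe sets), as were the peptide loaders Tap1 at 0.74 ± 0.11 (0.38 as that mean) and Tapbp at 0.54 ± 0.07. RT1 genes are near-identical copies that differ between strains, so their single values are uncertain.

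Genes of T and NK cells were lower more often than higher. Of 16, 5 were called lower and 2 higher, with a median of -0.11, and the lower ones included all 3 measured CD3 chains, Cd3d (-0.38 ± 0.07), Cd3g (-0.37 ± 0.08) and Cd3e (-0.29 ± 0.07), which form the signalling part of the T cell receptor. Cd3e ran from 5.26 through 5.46 to 5.60 in SBN/y and from 5.00 through 5.16 to 5.31 in SBH/y, so the strains overlapped and both lay under the array medians. With the dimmest 40% of probe sets left out, 3 were called lower. Gzmb, a killer cell protease, was higher by 0.47 ± 0.08 and lay under the array medians in both strains. Of 9 genes of B and plasma cells 2 were higher and 1 lower, with a median of -0.02. Jchain, which joins secreted antibodies, was higher by 1.11 ± 0.13 without overlap, and the lower gene was Xbp1 (-0.16).

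Of 21 complement genes 6 were higher and 2 lower, led by C3, the central component, at 0.77 ± 0.10, and by C1qc at 0.48 ± 0.08. Among 24 coagulation genes 9 were higher and 3 lower. Serpinc1, antithrombin, ran from 8.90 through 9.05 to 9.37 in SBN/y and from 9.995 through 10.17 to 10.26 in SBH/y, without overlap, a difference of 1.03 ± 0.07 (2.05-fold, adjusted p = 4.99e-13). The 3 fibrinogen chains were all called higher, Fga by 0.69 ± 0.08, Fgb by 1.14 ± 0.12 and Fgg by 1.01 ± 0.14. Fgb and Fgg lay under the array medians in both strains. The 2 further probe sets of Fgb both lay at -0.07 and the mean of its probe sets at 0.33. Vwf, von Willebrand factor of endothelium, differed by 1.01 ± 0.16, with an overlap of the strains. Its SBN/y arrays 1, 3 and 4 read 8.78 to 9.37 and arrays 2, 5, 6 and 7 read 7.92 to 8.32, against 9.20 to 9.98 in SBH/y. The endothelial genes Esam (-0.33 ± 0.04) and Plvap (-0.23 ± 0.05) were lower. Of 36 chemokine and cytokine genes 7 were higher and 3 lower, and 5 were lower without SBH/y arrays 6 and 7. Ccl6 ran from 5.82 through 6.11 to 6.60 and from 7.13 through 7.73 to 7.95 (1.45 ± 0.12, adjusted p = 4.25e-11). Il1b was higher by 0.68 ± 0.11 and Cxcl14, made by epithelia, lower (-0.97 ± 0.14), each without overlap.

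Genes of the integrated stress response, by which cells short of amino acids or burdened with unfolded protein switch to making amino acids and chaperones, rose in part: 11 of 27 were higher and 1 lower, with a median of 0.11. Without SBH/y arrays 6 and 7, 4 were lower, and without array 7 alone 3. Asns, which makes asparagine, ran from 6.41 through 6.64 to 6.76 in SBN/y and from 7.32 through 7.63 to 7.95 in SBH/y, a difference of 1.005 ± 0.08 (2.01-fold, adjusted p = 5.46e-11). The transfer RNA synthetase Gars1 was higher by 0.26 ± 0.04 and the transcription factor Atf3 by 0.37 ± 0.07, while Ddit4, a relative of Ddit4l, was lower (-0.39 ± 0.07). In all 4 genes the strains did not overlap, and Atf3 lay under the array medians in both.

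Of 31 chaperones of the endoplasmic reticulum 6 (19.4%) were higher and 3 lower, and 14 were higher after uninephrectomy. The 2 largest differences, those of Tmed6 and Sdf2l1, stood far above the list's median of 0.03. The stress element of such chaperones, CCAAT and CCACG with 9 bases of any kind between, was found on either strand in 7 of 26 promoters of the list, those of Hspa5, Hsp90b1, Calr, Canx, Dnajc3, Creld2 and Ero1b, against 17 of 11702 promoters of measured genes (0.145%). The first 6 of these were not called, with differences from -0.0004 to 0.085, and Ero1b was lower (-0.29 ± 0.06, but -0.11 and adjusted p = 0.0561 as the mean of its probe sets). The 4 higher genes with a promoter sequence held no match. Of 15 cytosolic heat shock genes 5 were higher and 0 lower, for example Hsph1 (0.32 ± 0.07) and Hsp90ab1 (0.22 ± 0.05). Of 25 immediate early genes 6 were higher and 1 lower, led by Myc at 0.94 ± 0.13 and Jun at 0.46 ± 0.09, and 3 were lower without SBH/y array 6.

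Genes of tubular injury were called as often higher as lower, 5 each of 27. Havcr1, the kidney injury molecule, lay under the array medians in both strains, from 4.27 through 4.58 to 4.86 in SBN/y and from 4.36 through 4.78 to 5.07 in SBH/y. Its difference of 0.15 ± 0.23 was not called (adjusted p = 0.72), against 2.40 after uninephrectomy. Spp1, osteopontin, differed by -0.02 ± 0.10 and Lcn2 by -0.03 ± 0.09, neither called. Clu, clusterin, ran from 10.18 through 10.31 to 10.60 and from 9.62 through 9.68 to 9.77, lower in SBH/y without overlap (-0.64 ± 0.07, adjusted p = 1.17e-08), and S100a6 was lower (-0.49 ± 0.07). Tff3, a secreted trefoil peptide, was higher by 1.09 ± 0.22, with an overlap of the strains. Its SBN/y arrays 1, 3 and 4 read 9.11 to 9.35 and arrays 2, 5, 6 and 7 read 7.28 to 8.03, against 9.24 to 9.80 in SBH/y. The count of higher injury genes was 3 without any 1 of SBH/y arrays 2, 3, 4 and 6 or SBN/y arrays 3, 4, 5 and 6.

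Of 27 genes of fatty acid and triglyceride synthesis 8 were lower and 4 higher, with a median of -0.08. The lower ones included Scd, Thrsp and Fasn, which were high in most SBN/y kidneys. Scd, which puts the double bond into stearate, ran from 5.21 through 8.20 to 8.98 in SBN/y and from 4.75 through 5.38 to 6.45 in SBH/y. SBN/y arrays 2 and 3 read 5.21 and 6.03, inside the SBH/y range, and the other 5 read 7.13 or more. The difference was -2.02 ± 0.41 (adjusted p = 0.000526). Thrsp, a regulator of lipogenesis, ran from 6.83 through 8.54 to 9.21 and from 5.79 through 6.66 to 7.17, again with SBN/y arrays 2 and 3 the lowest of their strain, and differed by -1.68 ± 0.33 (adjusted p = 0.000308). Fasn, the fatty acid synthase, ran from 8.67 through 9.42 to 9.60 and from 7.90 through 8.17 to 8.56, and differed without overlap by -1.04 ± 0.13 (adjusted p = 2.74e-07).

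Scd2, a second desaturase, was called lower in both states. It ran from 10.20 through 10.77 to 10.97 in SBN/y and from 8.76 through 9.73 to 9.78 in SBH/y, without overlap (-1.27 ± 0.15, adjusted p = 9.92e-08), and the difference after uninephrectomy was -1.36, while those of Scd, Thrsp and Fasn were -0.30, -0.17 and -0.15. The change between the states was called for Fasn (0.89, adjusted p = 0.0098) and not for Scd (1.72, adjusted p = 0.159), Thrsp (1.51, adjusted p = 0.105) or Scd2 (-0.09, adjusted p = 0.936). After uninephrectomy the SBN/y arrays of Scd ran from 5.00 through 5.66 to 6.11. Of the list 1 gene was higher without SBH/y array 3 or SBN/y array 2 and 2 without any 1 of SBH/y arrays 4 and 5 or SBN/y arrays 5, 6 and 7. The desaturase Fads1 was higher by 0.70 ± 0.10, and Acaca, which makes malonyl-CoA, lower (-0.41 ± 0.07, and -0.27 as the mean of its probe sets).

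Of 18 measured markers of fat tissue, 7 were lower and 0 higher, 3 of the 7 being Scd, Thrsp and Fasn themselves, with a median of -0.35, and the mean level of the list ran from 6.36 through 6.96 to 7.36 in SBN/y and from 6.14 through 6.25 to 6.50 in SBH/y. Ucp1, which makes heat in brown fat, ran from 6.55 through 8.55 to 8.94 and from 4.71 through 5.44 to 6.76, a difference of -2.74 ± 0.38 (adjusted p = 1.99e-06), and Cox8b, an oxidase subunit of the same tissue, differed by -1.42 ± 0.31. SBN/y array 3 was the lowest of its strain for Ucp1, Cox8b and Adipoq, while array 2, the lowest for Scd and Thrsp, read 8.55 for Ucp1, the median of its strain. The defining fat gene Adipoq, adiponectin, ran from 6.44 through 6.86 to 7.47 and from 6.30 through 6.50 to 6.85 and was not called (-0.31 ± 0.13, adjusted p = 0.102), but was without SBN/y array 3 (-0.39, adjusted p = 0.0376). Plin1 at -0.38 (adjusted p = 0.166) and Lep at -0.05 were not called either, whereas Fabp4 was lower (-0.71), these 3 being named after their values were seen. No marker of the list was at 0, since these log2 values have no zero, and the part of attached fat in the lipogenic values was not tested.

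**Figure D3:**
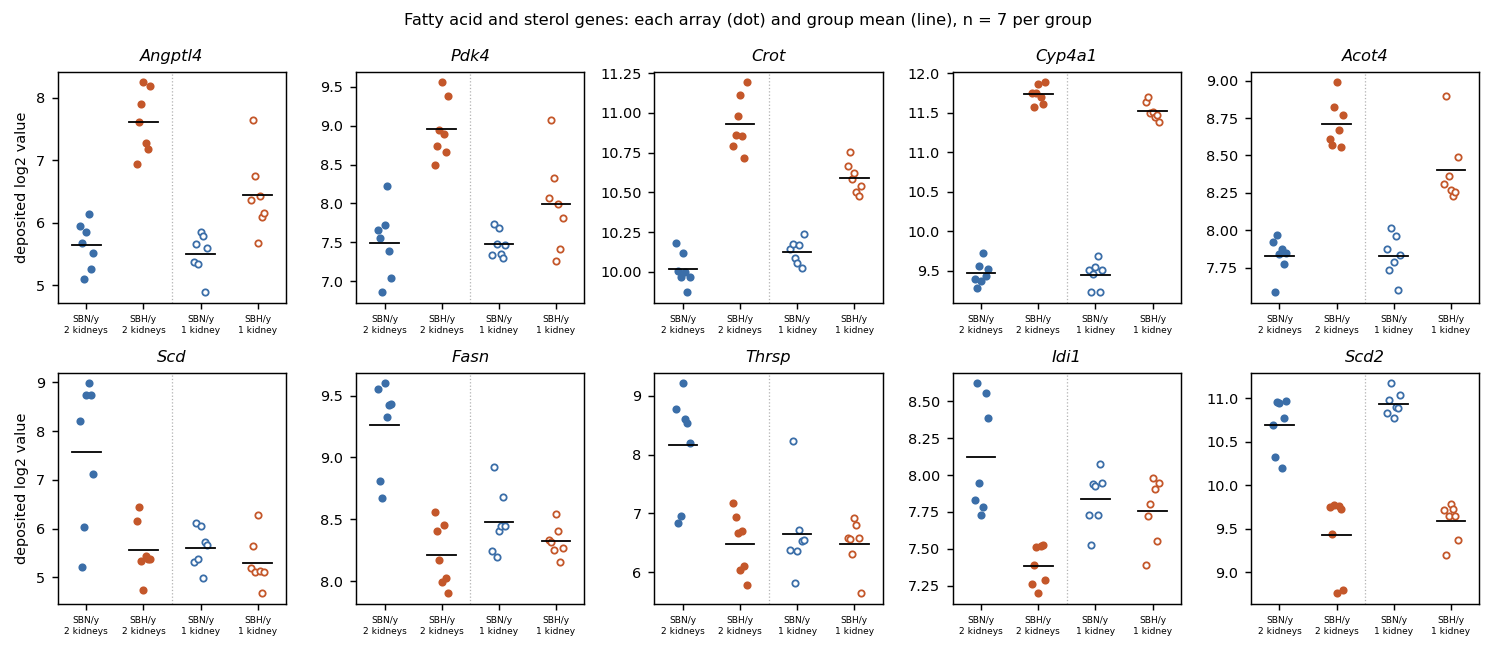
Deposited log2 values of 10 genes of fatty acid and sterol metabolism on each of the 7 arrays per group, for both strains with both kidneys and after uninephrectomy, with a bar at each group mean. The highest values of Scd, Thrsp and Fasn are those of SBN/y arrays with both kidneys, but 1 SBN/y array after uninephrectomy reads 8.24 for Thrsp, above 3 of those arrays, and Scd2 is lower in SBH/y in both states.

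Cholesterol synthesis was the other lipid pathway lower in SBH/y, with 11 of 20 genes lower, 1 higher and a median of -0.26. Fdps, which makes farnesyl diphosphate, ran from 8.85 through 9.08 to 9.39 in SBN/y and from 8.50 through 8.65 to 8.73 in SBH/y, and Idi1, an isomerase of the step before, ran from 7.73 through 7.95 to 8.62 and from 7.20 through 7.39 to 7.53. In neither gene did the strains overlap, with differences of -0.44 ± 0.06 and -0.74 ± 0.12 (adjusted p = 2.31e-06 and 3.58e-05). Hsd17b7 (-0.58 ± 0.11), Mvk (-0.28 ± 0.04) and Nsdhl (-0.26 ± 0.05) were also lower. After uninephrectomy 3 genes of the list were lower and 2 higher, and the change was called for Fdps (0.40, adjusted p = 0.0134) and Mvk (0.22, adjusted p = 0.0398).

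Fatty acid handling by omega-hydroxylation and by peroxisomes differed gene by gene rather than as a group. Cytochromes of the Cyp4 family turn arachidonic acid and other fatty acids into end-hydroxylated products, among them 20-HETE, which acts on renal vessels and salt transport. Of 10 measured, 4 were higher and 2 lower. Beside Cyp4a1, Cyp4a8 ran from 11.56 through 12.03 to 12.17 in SBN/y and from 12.79 through 12.88 to 12.94 in SBH/y (0.90 ± 0.06, adjusted p = 1.17e-12), and Cyp4b1 was higher by 1.33 ± 0.09. Cyp4a3 was the reverse, from 12.43 through 12.54 to 12.61 and from 11.51 through 11.57 to 11.79 (-0.94 ± 0.06, adjusted p = 5.76e-14). None of these 4 overlapped. The Cyp4a genes are close copies, and how far their probe sets read each other was not tested.

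Of 35 peroxisomal genes 6 were higher and 5 lower, with 3 lower without SBH/y arrays 6 and 7, without SBH/y array 2, and without any 1 of SBN/y arrays 3, 5, 6 and 7. Beside the opposed Pxmp4 and Mpv17l, Acot4, a thioesterase, was higher by 0.88 ± 0.09 and the D-amino acid oxidase Dao by 0.20 ± 0.04. Crot, the peroxisomal carnitine transferase, was higher by 0.91 ± 0.06, with 1 further probe set at 1.06 and 1 at -0.59. Mitochondrial fatty acid oxidation was mixed, with 5 of 31 genes higher and 6 lower. Cpt1a, which admits fatty acids to the mitochondrion, ran from 9.56 through 9.71 to 9.91 and from 10.08 through 10.23 to 10.38 (0.49 ± 0.07, adjusted p = 3.64e-06), and Hadhb, of the trifunctional enzyme, was lower (-0.30 ± 0.04). Pdk4, which shuts pyruvate out of the citrate cycle, was higher by 1.46 ± 0.21 (2.75-fold) without overlap. Ppara, the nuclear receptor for fatty acids, was lower (-0.32 ± 0.08), with its mean under the array medians in both strains.

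The respiratory chain was lower in SBH/y in part of its genes, by small amounts. Of its 76 measured subunits and assembly genes, 41 were lower and 2 higher, 71 lay below 0 against 53.4% of all genes, and the differences ran from -0.36 to 0.18 with a median of -0.106. In complex I, which takes electrons from NADH, 20 of 34 were lower and 1 higher, in complexes II and III 9 of 12 were lower, in complex IV 4 of 16 lower and 1 higher, and in the ATP synthase 8 of 14 lower. Uqcrq, a small subunit of complex III, ran from 11.42 through 11.56 to 11.86 in SBN/y and from 11.13 through 11.27 to 11.32 in SBH/y, the largest difference of the chain at -0.36 ± 0.05 (1.28-fold lower, adjusted p = 5.01e-06). Cox5b of complex IV ran from 11.84 through 11.92 to 11.94 and from 11.64 through 11.70 to 11.74 (-0.20 ± 0.03, adjusted p = 2.79e-05). In both genes all SBH/y arrays lay below all SBN/y arrays, as they did for Ndufa3 (-0.22 ± 0.04), Ndufv2 (-0.19 ± 0.04), Cyc1 (-0.24 ± 0.04) and Atp5f1d (-0.19 ± 0.04).

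Without SBH/y arrays 6 and 7, 29 of the 76 genes were called lower, 70 lay below 0 and the median was -0.098. The lower count of complex I was 13 without these 2 arrays and 13 without array 7 alone, and that of the ATP synthase was 5 without them, without SBH/y array 7 and without any 1 of SBN/y arrays 3, 5 and 6. With the 14 arrays fitted alone the ATP synthase count was 4, and with median centring 5. After uninephrectomy 24 genes were lower in complex I, 10 in complexes II and III, 7 in complex IV and 5 in the ATP synthase. In the citrate cycle and pyruvate entry 6 of 19 genes were lower and 1, Pdk4, higher. The lower ones included the malate dehydrogenases Mdh2 (-0.23 ± 0.04) and Mdh1 (-0.16 ± 0.03, with a further probe set at -0.92) and the citrate synthase Cs (-0.14 ± 0.04). In all, 3 were lower without SBH/y arrays 6 and 7, without SBN/y array 6, without SBN/y array 7 or with the 14 arrays alone. Ribosomal protein genes had 1 of 27 members higher and 0 lower, and proteasome genes 0 of 30 higher and 1 lower.

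**Figure D4:**
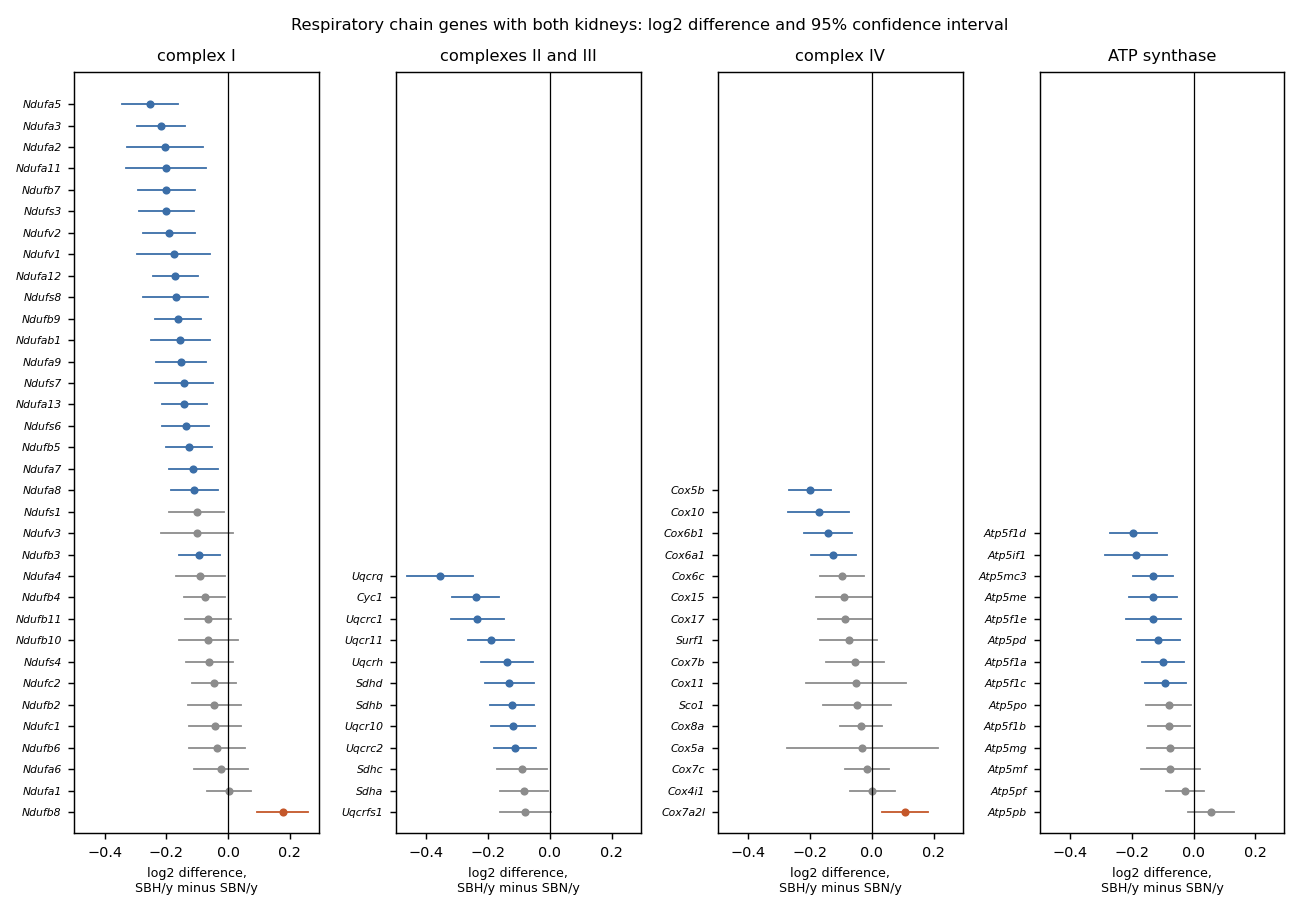
Difference SBH/y minus SBN/y with both kidneys (log2 units) and its 95% interval for each of the 76 measured genes of the respiratory chain, in a panel per complex, with called genes in blue (lower) or orange (higher) and the rest in grey. Of the 76 points 71 lie left of 0.

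Amino acid and methyl group metabolism was lower more often than higher, with 15 of 45 genes lower and 7 higher. Without SBH/y arrays 6 and 7, 10 were lower and 5 higher, and with 1 array left out 11 to 16 were lower. Bhmt ran from 7.51 through 8.01 to 8.22 in SBN/y and from 5.50 through 5.94 to 6.44 in SBH/y, without overlap (3.75-fold lower, adjusted p = 1.15e-12). Gpt, alanine aminotransferase, was lower (-0.92 ± 0.09). Agmat, which splits agmatine, ran the other way, from 8.81 through 9.001 to 9.07 and from 10.22 through 10.37 to 10.61 (1.44 ± 0.06, 2.72-fold, adjusted p = 1.62e-18), as did Ivd, of leucine breakdown (0.69 ± 0.05). The higher count was 4 with the 14 arrays alone and without any 1 of SBH/y arrays 1, 2, 4 and 7 or SBN/y arrays 2 and 6. Of the heme and iron genes 8 of 26 were lower and 4 higher. Blvrb, the second biliverdin reductase, was lower (-0.72 ± 0.08) where Blvra was higher, the transferrin receptor Tfrc was lower (-0.68 ± 0.09) and Alad, an early enzyme of heme synthesis, likewise (-0.42 ± 0.05), while Fech, its last enzyme, was higher by 0.33 ± 0.05.

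Of 34 NRF2 targets and glutathione enzymes 6 were higher and 4 lower, with a median of 0.02. Without SBH/y arrays 6 and 7, 5 were higher and 5 lower. Gsta3 (-0.96 ± 0.10) and Gstt2 (-0.69 ± 0.07, and -0.42 as the mean of its probe sets) were lower, and Gpx2 (0.39 ± 0.07) higher. Of 26 conjugating enzymes 7 were higher and 1 lower, with 4 lower without SBH/y arrays 6 and 7 and 3 without SBN/y array 2. Sult1c3, a sulfotransferase, differed by 1.64 ± 0.12 and Inmt, which methylates indoles and thiols, by 1.44 ± 0.10 (2.72-fold), each without overlap. Sult1c3 ran from 3.54 through 3.86 to 4.24 in SBN/y and from 5.24 through 5.52 to 5.91 in SBH/y. All its SBN/y values and its SBH/y median lay under the array medians. Cytochromes of families 1 to 3 were dim. They were called about as often as all genes, 4 of 32 (12.5%) higher and 3 (9.38%) lower, against 11.8% and 9.69%. The higher count was 2 without SBH/y array 1, and the lower count 5 without array 6 and 6 without arrays 6 and 7.

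The thick ascending limb had 6 of 11 markers lower and 0 higher, with a median of -0.15. Casr, the calcium-sensing receptor, ran from 8.42 through 8.66 to 8.80 in SBN/y and from 7.35 through 7.54 to 7.59 in SBH/y, a difference of -1.12 ± 0.06 (2.17-fold lower, adjusted p = 1.95e-15). Cldn16, the claudin of magnesium and calcium uptake, was lower (-0.46 ± 0.05), the prostaglandin receptor Ptger3 (-0.46 ± 0.08) and the phosphatase inhibitor Ppp1r1a (-0.52 ± 0.05). In all 4 every SBH/y array lay below every SBN/y array. The salt transporter Slc12a1 was close to the threshold (-0.16 ± 0.05, adjusted p = 0.0388) and was not called with the 14 arrays alone (adjusted p = 0.0815), without SBH/y arrays 6 and 7 (0.054), or without any 1 of SBH/y arrays 3, 4, 5 and 7 or SBN/y arrays 2, 4, 6 and 7 (0.052 to 0.098). Umod, uromodulin, was not called at 0.06 ± 0.04.

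In the distal convoluted and connecting tubule 5 of 13 markers were lower and 0 higher, with a median of -0.17. Slc8a1, the sodium-calcium exchanger, ran from 9.002 through 9.18 to 9.33 in SBN/y and from 8.17 through 8.50 to 8.63 in SBH/y, without overlap (-0.70 ± 0.07, adjusted p = 4.03e-09). Calb1, the calcium buffer of the same cells, ran from 11.11 through 11.85 to 12.06 and from 10.60 through 10.86 to 11.14, with an overlap of its ranges (-0.86 ± 0.11, adjusted p = 2.46e-07). Klk1, tissue kallikrein, was lower (-0.24 ± 0.06), and Slc12a3, the thiazide-sensitive transporter, was not called (-0.19 ± 0.08, adjusted p = 0.0965), though called with quantile normalization (adjusted p = 0.0456), without SBH/y array 5 (0.0493) and without SBN/y array 2 (0.043). Kl, klotho, was lower (-0.51 ± 0.15, adjusted p = 0.0127), and not called without SBH/y arrays 6 and 7 (-0.42, adjusted p = 0.06).

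Among 34 genes of sodium, chloride and potassium transport 10 were lower and 4 higher. The potassium channel subunit Kcne1 ran from 5.26 through 5.59 to 5.65 in SBN/y and from 4.24 through 4.59 to 4.67 in SBH/y (-1.01 ± 0.09, adjusted p = 7.77e-10). Both strains lay under the array medians. Wnk1 (-0.23 ± 0.04, and -0.15 as the mean of its probe sets), Stk39 (-0.24 ± 0.05) and Klhl3 (-0.28 ± 0.07), which act in the kinase pathway that governs the salt cotransporters, were all lower, as was the sodium channel subunit Scnn1b (-0.22 ± 0.05). Of 14 principal cell markers 3 were lower and 2 higher. The lower ones were Scnn1b, the water channel Aqp3 (-0.48 ± 0.10) and the vasopressin receptor Avpr2 (-0.28 ± 0.08), and the higher ones the sodium pump regulator Fxyd4 (0.28 ± 0.07, adjusted p = 0.00637) and the mineralocorticoid receptor Nr3c2 (0.14 ± 0.05, adjusted p = 0.0494). Nr3c2 was not called with the 14 arrays alone (adjusted p = 0.0932), with quantile normalization (0.0664), without SBH/y arrays 6 and 7 (0.0578) or without any 1 of SBH/y arrays 2, 3, 5, 6 and 7 or SBN/y arrays 2, 3, 4 and 7 (0.0516 to 0.124). The water channel Aqp2 was not called at -0.08 ± 0.09. Intercalated cells had 4 of 10 markers lower, among them the bicarbonate exchanger Slc4a1 (-0.29 ± 0.07), and 2 lower with the 14 arrays alone.

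Of 16 markers of the early proximal tubule 3 were higher and 1 lower, and the megalin gene Lrp2 (0.00 ± 0.03), its partner Cubn (0.06 ± 0.04) and the phosphate transporter Slc34a1 (0.05 ± 0.05) were not called. Slc5a12, which takes up lactate, was higher by 0.92 ± 0.14, the glucose transporter Slc2a2 by 0.50 ± 0.09 and the bicarbonate transporter Slc4a4 by 0.35 ± 0.07. Of 34 genes of protein endocytosis and lysosomes 10 were higher and 0 lower, with a median of 0.10. Hexa, a lysosomal hexosaminidase, ran from 10.29 through 10.40 to 10.55 in SBN/y and from 10.73 through 10.80 to 10.90 in SBH/y (0.38 ± 0.04, adjusted p = 3.31e-08), and Neu1 (0.34 ± 0.06) and the cathepsin Ctsz (0.44 ± 0.07) also lay apart without overlap.

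Podocyte genes, which form the filter's outer layer, had 3 of 14 members higher and 0 lower, namely Plce1 (0.56 ± 0.09), Wt1 (0.24 ± 0.07) and Clic5 (0.23 ± 0.06). Nphs1, nephrin, was not called (0.22 ± 0.10, adjusted p = 0.116), but was with the replicate number as a block (adjusted p = 0.0339), without SBH/y arrays 6 and 7 (0.0474), without array 6 alone (0.0349) or without SBN/y array 2 (0.0473). After uninephrectomy 0 of the podocyte genes were higher and 6 lower, and the change between the states was called for Plce1 (-0.54, adjusted p = 0.0258), Wt1 (-0.59, adjusted p = 0.00201) and Nphs1 (-0.55, adjusted p = 0.0364).

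Transporters of organic anions and cations, which secrete drugs and metabolites, were split evenly, 11 of 42 higher and 11 lower. Slc10a2, the bile acid transporter, ran from 3.61 through 4.05 to 4.30 in SBN/y and from 5.20 through 5.47 to 5.78 in SBH/y (1.53 ± 0.12, adjusted p = 1.06e-11). All its SBN/y values and its SBH/y median lay under the array medians. Slco1a6 was higher by 0.52 ± 0.07 and Slc47a1 by 0.38 ± 0.05, while the efflux pumps Abcg2 (-0.59 ± 0.06) and Abcc6 (-0.30 ± 0.04) were lower, all without overlap. Of 26 amino acid transporters 6 were higher and 2 lower, with 4 lower without SBH/y arrays 6 and 7. Slc38a3, which brings glutamine into the proximal tubule, was higher by 1.12 ± 0.11 (2.17-fold) and Slc7a12 by 0.59 ± 0.08.

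Genes of the renin-angiotensin system did not move one way. Of 19, 4 were higher and 3 lower. Ace, the converting enzyme, ran from 6.51 through 6.66 to 7.09 in SBN/y and from 5.90 through 6.21 to 6.40 in SBH/y, lower without overlap (-0.54 ± 0.09, adjusted p = 2.39e-05, and -0.33 as the mean of its probe sets). Agtr1a, the main angiotensin receptor, was higher by 0.30 ± 0.05 and its close relative Agtr1b lower (-0.36 ± 0.09), and neprilysin, Mme, was lower (-0.26 ± 0.05). Agt, angiotensinogen, ran from 4.20 through 4.77 to 4.95 and from 4.86 through 5.14 to 5.42, under the array medians in both strains (0.41 ± 0.12, adjusted p = 0.0148), and was not called without SBN/y array 6 (0.33, adjusted p = 0.0508).

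Among 45 vasoactive and natriuretic genes 6 were higher and 8 lower. Ephx2, which breaks down the vasodilating epoxides of arachidonic acid, ran from 10.20 through 10.35 to 10.47 in SBN/y and from 9.66 through 9.77 to 9.87 in SBH/y, without overlap (-0.57 ± 0.05, adjusted p = 1.32e-09). The adrenergic receptors Adra2a (0.68 ± 0.08, and 0.38 as the mean of its probe sets) and Adra2b (0.38 ± 0.06) were higher, as was the cytoskeletal adducin Add1 (0.18 ± 0.04). Of 49 growth factors and receptors 8 were higher and 5 lower. Igf1 ran from 7.90 through 8.44 to 8.53 and from 9.22 through 9.40 to 10.02 (1.22 ± 0.12, 2.34-fold, adjusted p = 1.51e-09), and its binding protein Igfbp2 was higher by 0.71 ± 0.05, both without overlap. Egfr was lower (-0.41 ± 0.06), with 2 further probe sets at 0.02 and 0.03. Matrix genes were mixed, with the collagenase Mmp2 lower (-0.64 ± 0.06, and -0.38 as the mean of its probe sets), the collagen cross-linker Lox higher (0.55 ± 0.10), and Col1a1 (-0.17 ± 0.09) and Tgfb1 (0.07 ± 0.07) not called.

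Clock genes, which drive daily rhythms through activators such as Bmal1 and Npas2 and repressors such as Nr1d1 and the Per genes, had 2 of 17 members called higher and 3 lower, and 4 and 5 with the 14 arrays alone. Nr1d1 ran from 6.69 through 7.08 to 7.85 in SBN/y and from 4.83 through 6.05 to 6.52 in SBH/y, without overlap (-1.24 ± 0.31, adjusted p = 0.0045). Cry1 (1.13 ± 0.21, adjusted p = 0.000143) and Nfil3 (0.78 ± 0.22, adjusted p = 0.00989) were higher. Nr1d2 (-0.77 ± 0.25, adjusted p = 0.0263) and Per3 (-0.85 ± 0.29, adjusted p = 0.0392) were lower, and neither was called with trended and robust moderation (adjusted p = 0.0503 and 0.0696). Further probe sets of Nr1d2 lay at -0.68 and -0.74, both called, and that of Per3 at -0.16, not called. With the 14 arrays alone both genes were called (adjusted p = 0.000298 for Nr1d2 and 0.000957 for Per3). Without any 1 of SBH/y arrays 4 and 5 or SBN/y arrays 3 and 5 neither was called (0.0515 to 0.0576 for Nr1d2 and 0.0581 to 0.0794 for Per3), nor was Per3 without SBH/y array 1, 3 or 7 or SBN/y array 6 or 7 (0.0566 to 0.0883).

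Bmal1 and Npas2, named after their values were seen, were not called although every SBH/y array lay above every SBN/y array. Bmal1 ran from 6.29 through 6.50 to 7.03 and from 7.06 through 7.34 to 7.59 (0.75 ± 0.33, adjusted p = 0.125), and Npas2 from 6.62 through 6.84 to 7.67 and from 7.72 through 7.95 to 8.11 (0.89 ± 0.34, adjusted p = 0.069). The fit takes its spread from all 28 arrays, and after uninephrectomy Bmal1 ran from 4.95 through 6.87 to 7.28 in SBN/y and from 4.41 through 4.80 to 7.52 in SBH/y, with 1 array of each strain far from the other 6. Fitted on the 14 arrays with both kidneys alone, Bmal1 and Npas2 were called (adjusted p = 0.000337 and 0.000348). After uninephrectomy the differences had the opposite sign, at -1.52 and -1.78. The sources used here do not give the hour at which kidneys were taken, and its part in these values was not tested.

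**Figure D5:**
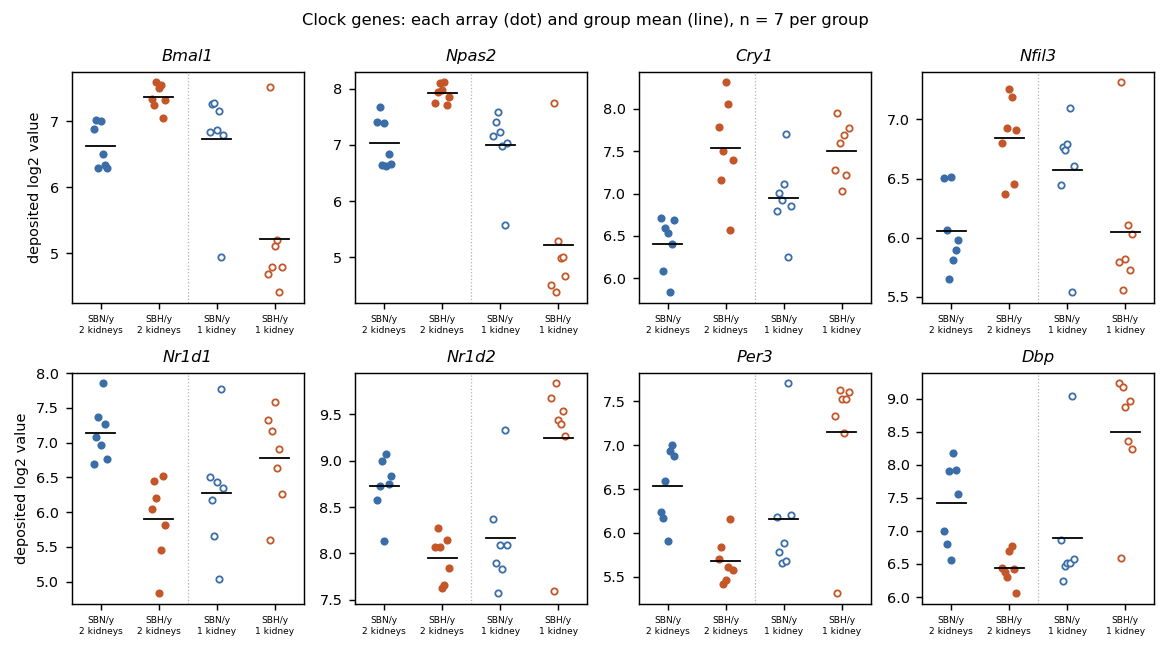
Deposited log2 values of clock genes on each array, for each strain with 2 kidneys and after uninephrectomy, with a bar at each group mean. With both kidneys the 7 SBH/y points lie above the SBN/y points for Bmal1 and Npas2 and below them for Nr1d1, and after uninephrectomy 1 array per strain lies apart.

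The same strain difference after uninephrectomy was measured in 14 other arrays, although the spread was estimated over all 28. There, 2114 genes (14.9%) were called higher and 1694 (11.9%) lower, 3808 in all. Of the 3059 genes called with both kidneys 2020 (66.0%) were called the same way, which is 53.0% of the 3808, and 17 the opposite way. Of the 122 genes past 2-fold 110 were called the same way, among them Mis18a (2.54 in both states), Cyp4a1 (2.27 and 2.07), RT1-Bb (-3.77 and -3.71) and Mpv17l (-1.84 and -1.94).

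A change of the difference with uninephrectomy was called in 293 genes (2.06%), 131 of them called with both kidneys, where the difference grew in 41 and shrank or turned in 90. By probe sets it was called in 439, and in 812 with the replicate number as a block. With both kidneys Ddit4l ran from 6.47 through 6.99 to 8.07 in SBN/y and from 8.89 through 9.35 to 9.76 in SBH/y. After uninephrectomy it ran from 5.77 through 7.66 to 8.34 and from 5.81 through 6.41 to 9.37, so the strains overlapped widely. Its difference was 2.17 with both kidneys and -0.76 after uninephrectomy (change -2.93, adjusted p = 0.0053). Slc16a1, the lactate carrier, went from 1.52 to -0.27 (change -1.79, adjusted p = 0.0131), and its first value was 0.77 as the mean of its probe sets. Its strains also overlapped after uninephrectomy, from 6.79 through 8.30 to 8.76 in SBN/y and from 7.24 through 7.66 to 9.73 in SBH/y. Ucp1 went from -2.74 to -0.42 (2.33, adjusted p = 0.0222) and Sult1c3 from 1.64 to 0.54 (-1.10, adjusted p = 0.000741). Sdf2l1 grew from 2.36 to 2.80 (0.44, adjusted p = 0.0485) and Asns from 1.005 to 1.45 (0.45, adjusted p = 0.0467).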

How the data were processed

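Total RNA of each kidney sample was hybridised to a 1-colour Affymetrix rat array. The authors deposited log2 values for every probe set. The submitters' processing notes name GCOS and RMA without a version. RMA corrects background, quantile-normalizes probes and summarises probe sets, so a difference in total RNA per sample cannot be seen. The sources used here do not say whether all arrays were normalized together.

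The platform annotation gave each probe set its gene, updated by gene identifier in RefSeq's GRCr8 table, and a gene was read from its brightest probe set. Group means over all 28 arrays were fitted with limma 3.58.1 in R 4.3.3, with Benjamini-Hochberg adjustment over 31042 probe sets at 0.05. The fit was tested on simulated data. Gene positions served only to order neighbours.

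Named are the 15 largest called differences each way, up to 5 called members with the smallest p of each gene list, and 27 panel genes, of which 23 were measured and some are not reported here. The members and lists were chosen with earlier results of these data known. Alternatives were the 14 arrays alone, quantile normalization, median centring, a filter on the dimmest 40% of probe sets, moderation with trend and robust estimation, the replicate number as a block, the mean of a gene's probe sets and each array left out. Leaving out SBH/y arrays 6 and 7 was added after seeing the data. Outside the replicate block, the numbers were not used to pair samples. With both kidneys, deviations from the group mean of same-numbered SBN/y and SBH/y arrays correlated between -0.095 and 0.350. Arrays after uninephrectomy were not compared in this way, so these correlations cannot decide whether the numbers pair samples. Of the named genes 27 had both strain means under the lowest array median, where a missing call does not show equal levels.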

Additional observations from a re-analysis of the deposited data

Results flagged for a closer look

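Of 378 groups of 7 arrays of the named genes, 23 had an array whose gap to the next was large for its range, where chance flags about 1 in 20 groups. SBN/y array 2 was the lowest for Ly6i (10.21, next 11.35), Slc7a12 (11.47, next 12.01), Mme (10.64, next 10.84) and Col1a1 (7.20, next 7.46), and the highest for Ace (7.09, next 6.75), Adra2a (6.35, next 5.95) and Nphs1 (6.92, next 6.61). SBH/y array 4 was the highest for RT1-Ba (11.25, next 10.86), Lyz2 (12.41, next 12.22), RT1-Da (11.76, next 11.46) and Cd68 (7.19, next 6.83), and the lowest for Casr (7.35, next 7.50). SBH/y array 2 was the lowest for Slc47a1 (11.12, next 11.25) and Ppara (4.55, next 4.77) and the highest for Slc38a3 (9.04, next 8.63). Further arrays apart were SBN/y array 3 for Ucp1 (6.55, next 8.07), SBN/y array 1 for Avpr2 (7.57, next 7.79) and Kl (6.84, next 7.42), SBN/y array 4 for Il1b (4.94, next 5.47) and RT1-CE12 (11.20, next 11.11), SBN/y array 5 for Mmp2 (7.70, next 7.57) and Cd68 (6.63, next 6.40), and SBH/y array 6 for Ddit4 (6.95, next 7.24).

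The strain difference changed with uninephrectomy in 32 of the named genes by the interaction in limma. The change, taken as the difference after uninephrectomy minus that with both kidneys, was positive for Ucp1 (2.33), Havcr1 (2.25), Oacyl (0.81), Fasn (0.89), Fdps (0.40) and Mvk (0.22). Among clock genes it was 1.74 for Nr1d1, 1.86 for Nr1d2, 1.85 for Per3 and -1.30 for Nfil3. Among immune genes it was 0.40 for Cd3d, 0.45 for Cd3e, 0.71 for Jchain and 0.44 for RT1-DMb, and the CD3 chains lower with both kidneys differed after uninephrectomy by 0.02 and 0.16, neither called. Among stress and injury genes it was 0.44 for Sdf2l1, 0.45 for Asns, 0.48 for Atf3, 0.54 for Clu, 0.77 for Spp1 and -2.93 for Ddit4l. It was also 0.49 for Col1a1, -0.61 for Lox, -0.50 for Col17a1, -0.54 for Plce1, -0.59 for Wt1, -0.55 for Nphs1, -0.49 for Klk1, -0.25 for Mme, -0.38 for Nr3c2, -0.45 for Crot, -1.10 for Sult1c3 and -1.79 for Slc16a1.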

How the results depend on the processing

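The 5570 called probe sets became 4852 with the 14 arrays alone, 5822 with quantile normalization, 5425 with median centring, 5060 of 18625 with the dimmest 40% left out, 5645 with trended and robust moderation, 6689 with the replicate block, 7025 without SBH/y arrays 6 and 7, and 4841 to 6528 with 1 array left out. The replicate block raised the called changes with uninephrectomy from 439 probe sets to 812, the positive ones from 185 to 341 and the negative ones from 254 to 471. Of the 7 SBN/y arrays, 1 correlated best with the SBH/y array of its own number. The share of further probe sets called the same way was 30.1%, and 42.1% with the dimmest 40% left out. The share of next genes called higher after a higher gene was 16.4%, and 22.4% with that filter, 18.5% with the replicate block and 18.8% without SBH/y arrays 6 and 7. The share of all probe sets called rose as well, from 17.9% to 27.2%, 21.5% and 22.6% in the same order. The 11.8% of genes called higher holds for the main fit only, so these rises do not show closer grouping. Among 5924 fits of named genes under alternatives, 5814 kept their call and direction, 100 lost and 10 gained a call, and 0 reversed. The calls of 26 of 263 named genes were lost in at least 1 alternative. Of 2436 list counts 191 moved by over 1.5 times. The number of arrays limits the precision, and signal over background was not measured.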
